A study of Mus musculus with 4 samples.

Results

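The pentose phosphate pathway and its partner enzymes supply the liver with NADPH, and 10 genes of this system were followed here out of the 48709 genes in the count files. They are G6pdx, H6pd, Pgls and Pgd of the oxidative branch, Rpia, Rpe, Tkt and Taldo1 of the non-oxidative branch, and Me1 and Idh1. The set was selected on measured values, since G6pdx and Me1 were higher in this very contrast, so the values of the members are a description and nothing is tested with them. RNA came from liver of untreated C57BL/6 mice, as 2 libraries labelled WT and 2 labelled DDI2-KO. The WT mice were littermates with Ddi2 flox/flox alleles that lacked Cre. The DDI2-KO mice carried the same alleles with Cre under the albumin promoter, which acts in hepatocytes. The paper calls this deletion liver-specific, and the state of Ddi2 in other liver cells was not examined here. The methods give an age of 6 to 12 weeks and both sexes. No reads of the Y-linked genes Ddx3y, Eif2s3y, Kdm5d or Uty were counted in any of the 4 libraries. Xist, the RNA of the inactive X, was counted in all 4, which together is the pattern of female mice in both groups.

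The scaled level of the targeted gene was not lower with the DDI2-KO label. The WT libraries counted 4749 and 3812 reads on Ddi2, those labelled DDI2-KO 4068 and 3777. Scaled with edgeR's TMM factors to CPM (counts per 1000000 reads of the scaled library), this was 141 and 123 CPM in WT against 157 and 164 CPM. Reads were summed over the whole gene, and the stretch between the LoxP sites was not counted apart, so this number does not check the deletion. According to the methods, mice were genotyped by PCR before and after each experiment. The paper also shows immunoblots of DDI2 in livers of both genotypes. Rsc1a1 overlaps Ddi2 on the same strand, and 17.9% of the 50-base stretches of the Ddi2 transcript also occur in it. Groups are therefore named by their labels throughout. Depth on genes was 34109018 and 31532247 reads in WT, against 25582344 and 22501208 in those labelled DDI2-KO. In bulk liver RNA, fewer cells of a type and less RNA per cell cannot be told apart.

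NADPH is the electron donor for fatty acid and cholesterol synthesis, for the regeneration of glutathione and thioredoxin, and for cytochrome P450 reactions, all of them prominent in hepatocytes. In the cytosol, glucose-6-phosphate dehydrogenase commits glucose 6-phosphate to the oxidative branch, and 6-phosphogluconate dehydrogenase yields further NADPH together with ribulose 5-phosphate. The non-oxidative branch then interconverts sugar phosphates and returns carbon to glycolysis, while malic enzyme and isocitrate dehydrogenase make cytosolic NADPH from malate and isocitrate.

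The promoters of G6pdx and Me1 are shown because these members stood together at the top of the fold changes. Both are the 300 bases from 250 before to 50 after a start site, 5′ to 3′ on the minus strand, from RefSeq on GRCm38.p6. That of G6pdx lies at chrX:74428831-74429130 and that of Me1 at chr9:86695865-86696164. Capitals mark matches to TGACNNNGC, the core of the antioxidant response element, on either strand.
G6pdx: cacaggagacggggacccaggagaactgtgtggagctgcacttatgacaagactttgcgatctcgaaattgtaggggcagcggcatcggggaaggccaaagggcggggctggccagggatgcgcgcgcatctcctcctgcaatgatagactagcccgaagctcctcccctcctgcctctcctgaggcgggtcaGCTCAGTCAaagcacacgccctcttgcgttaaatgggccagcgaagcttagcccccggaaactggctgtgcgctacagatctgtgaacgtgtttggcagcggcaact
Me1: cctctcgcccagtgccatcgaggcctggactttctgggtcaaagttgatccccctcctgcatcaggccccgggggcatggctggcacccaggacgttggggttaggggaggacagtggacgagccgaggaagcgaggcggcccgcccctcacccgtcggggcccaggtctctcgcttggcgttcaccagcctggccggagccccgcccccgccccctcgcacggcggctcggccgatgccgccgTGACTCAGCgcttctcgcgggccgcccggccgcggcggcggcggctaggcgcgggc
The match in G6pdx reads GCTCAGTCA, is on the opposite strand and begins at position -57 from the start site. The match in Me1 reads TGACTCAGC and begins at -6, so it spans the start. RefSeq promoters were found for all 10 members, 13 in total because Pgd, Me1 and Idh1 have a further start. A match was found in 3 of the 13, the third being the downstream start of Pgd, and in 12.4% of all 32851 promoters of the same length. The sterol response element TCACNCCAC and the E-box CACGTG were in none of the 13, against 1.24% and 7.15% of all promoters. The GC box GGGCGG was in 10 of the 13 and in 35.7% of all promoters. Tkt held the most copies, 5, while Me1 held 4 and G6pdx 1. Both strands were searched for each motif, and a match is a description of letters only.

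G6pdx (ENSMUSG00000031400, chromosome X, 74409483 to 74429194 of GRCm38) encodes glucose-6-phosphate dehydrogenase, the enzyme that commits carbon to the oxidative branch. Its counts were 330 and 440 in WT, against 1747 and 1298 in those labelled DDI2-KO. After scaling these were 9.82 and 14.2 CPM against 67.5 and 56.5 CPM. Both libraries labelled DDI2-KO were far above both WT libraries, and the gap between groups was wider than the gap within either. The WT mean of 12 ± 3.13 CPM (SD, n = 2) compared with 62.0 ± 7.79 CPM (SD, n = 2) in the other group, a ratio of 5.15. edgeR's fit gave a log2 fold change of 2.37 with a standard error (SE) of 0.22. The retrogene copy G6pd2 shared 7.65% of the 50-base stretches of the G6pdx transcript, and it had 0 reads in all 4 libraries. Ikbkg, which overlaps G6pdx on the other strand, had 51.4 and 55.0 CPM in WT and 52.9 and 67.1 CPM in the other group, with no shift of the size seen in G6pdx. Since the strand setting of the counting is not given in the sources used here, reads from the overlap cannot be told apart.

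G6pdx is X-linked, so other genes of that chromosome were set beside it. Of the 410 X-linked genes tested, 9 passed an adjusted p of 0.05 in edgeR, or 2.20%, and 6 of them, 1.46%, were higher. Over all 13699 genes tested these shares were 2.53% and 1.33%. Their median log2 fold change was -0.06, against -0.01 over all genes. Xist, the RNA that coats the inactive X, had 520 and 373 CPM in WT, against 47.5 and 143 CPM in those labelled DDI2-KO, with groups that did not overlap. Its log2 fold change was -2.23 (SE 0.58, adjusted p = 0.120 in edgeR), and it passed in DESeq2 (0.0478) and in edgeR without library 1 (log2 fold change -1.64, adjusted p = 0.0382) or library 2 labelled DDI2-KO (-3.22, 0.0148), within a range of 0.0148 to 0.409 over 14 alternatives. The part of Xist in the G6pdx values was not tested. Xist and the Y-linked genes were looked up after other values had been seen.

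The next steps of the oxidative branch had no such gap between groups. Pgls encodes 6-phosphogluconolactonase, which hydrolyses the lactone made by G6pdx, and it had 19.3 and 22.7 CPM in WT against 19.0 and 11.9 CPM. Its log2 fold change was -0.44 (SE 0.24), and the groups all but touched. It was the lowest of the 10 members, but moved to -0.82 without library 1 labelled DDI2-KO and to -0.13 without library 2, where Rpe, at -0.22, was lower. Pgd encodes the second NADPH-producing dehydrogenase of the branch, with 40.2 and 45.8 CPM in WT, against 50.1 and 34.8 CPM in those labelled DDI2-KO. Both WT values of Pgd lay between the 2 of the other group, and the log2 fold change of -0.02 (SE 0.20) was smaller than its error. H6pd is the counterpart of G6pdx inside the endoplasmic reticulum, where its NADPH serves the steroid reductase Hsd11b1. Its values were 330 and 257 CPM in WT and 359 and 281 CPM, which overlap, with a log2 fold change of 0.12 (SE 0.21). Of the 4, only G6pdx had a gap between groups wider than the gap within either. The set was chosen for its rise in this contrast, so this describes the choice and tests nothing. The means of Pgls, 21.0 ± 2.39 CPM in WT and 15.4 ± 5.04 CPM in the other group (SD, n = 2 each), differed by more than either SD, but not by more than the range of the libraries labelled DDI2-KO.

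**Figure D1:**
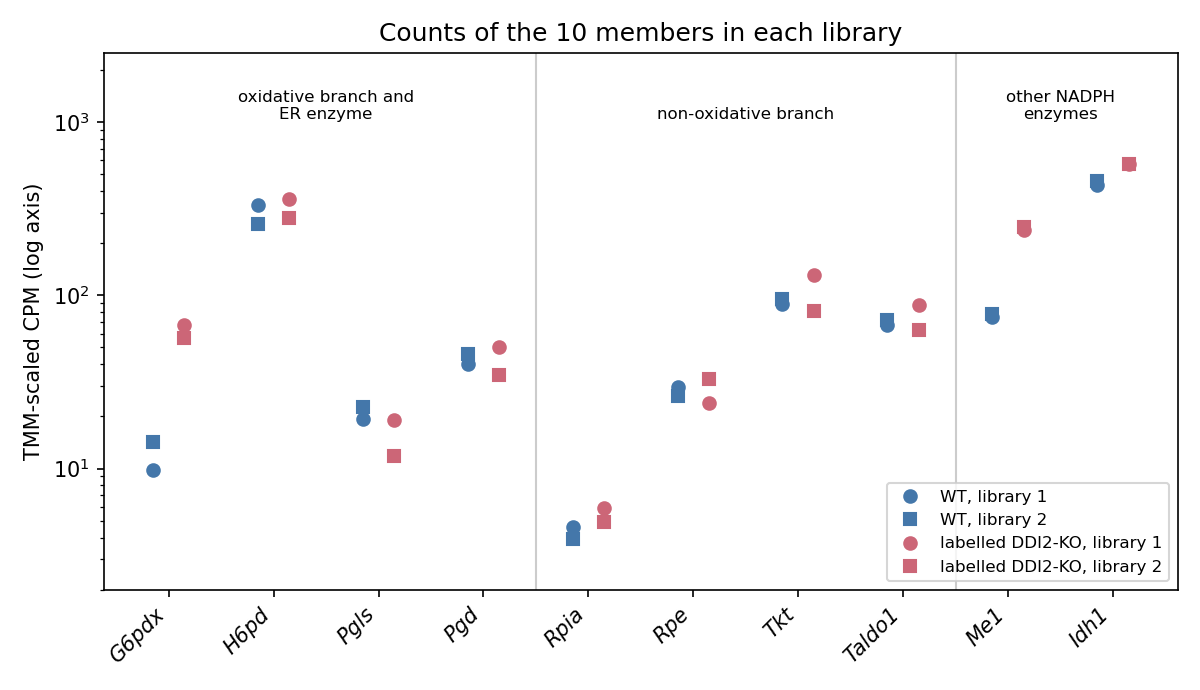
TMM-scaled CPM on a log axis of the 10 members in each of the 4 libraries, with WT in blue, libraries labelled DDI2-KO in red, circles for library 1 and squares for library 2. G6pdx and Me1 show a clear gap between groups, at 9.82 to 14.2 against 56.5 to 67.5 CPM and 75.2 to 77.9 against 239 to 246 CPM.

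In the non-oxidative branch no member had a gap between groups wider than the gap within either. Rpia, the ribose 5-phosphate isomerase, was the least counted member, with 4.58 and 3.92 CPM in WT, against 5.91 and 4.92 CPM in those labelled DDI2-KO, and a log2 fold change of 0.35 (SE 0.24), or 0.21 without library 1 labelled DDI2-KO. Its groups did not overlap, and its means of 4.25 ± 0.470 and 5.41 ± 0.703 CPM (SD, n = 2 each) differed by more than either SD, but the gap between the groups was narrower than that within either. Rpe, the ribulose-phosphate epimerase, had 29.4 and 26.2 CPM against 23.8 and 33.0 CPM, so both WT libraries lay between the others, and its log2 fold change was 0.03 (SE 0.20). Tkt encodes transketolase, which moves carbon units between sugar phosphates. It had 88.6 and 94.9 CPM in WT, and 130 and 81.4 CPM in the libraries labelled DDI2-KO. Taldo1 encodes transaldolase, its partner in returning carbon to glycolysis, with 67.7 and 72.2 CPM against 88.3 and 63.4 CPM. For both genes library 1 labelled DDI2-KO was the highest and library 2 the lowest of the 4, and the WT libraries sat in between. Their log2 fold changes were 0.21 (SE 0.23) and 0.12 (SE 0.19). Without library 1 labelled DDI2-KO both turned negative, to -0.17 for Tkt and -0.14 for Taldo1.

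Me1 (ENSMUSG00000032418, chromosome 9, 86581371 to 86695953 of GRCm38) encodes cytosolic malic enzyme, which makes NADPH while turning malate into pyruvate. Its counts were 2529 and 2408 in WT, against 6187 and 5659 in those labelled DDI2-KO, or 75.2 and 77.9 CPM against 239 and 246 CPM. The libraries of each group lay close together and the groups were far apart. Means were 76.6 ± 1.92 CPM (SD, n = 2) and 243 ± 5.11 CPM (SD, n = 2), a ratio of 3.17, with a log2 fold change of 1.66 (SE 0.17). Of the 50-base stretches of the Me1 transcript, 26.5% also occur in transcripts of other genes, 24.3% in the processed pseudogene Gm7049, so part of its count is uncertain. Idh1, the cytosolic isocitrate dehydrogenase, was the most counted member. It had 434 and 459 CPM in WT and 572 in each library labelled DDI2-KO. The 2 groups of Idh1 did not overlap, but the step between them was small, with a log2 fold change of 0.36 (SE 0.17). Taldo1 shared 10.9% of its stretches, Rpia 5.40% and Pgd 0.389%, and the other 5 members shared none.

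All 10 members passed the filter on low counts. Of them 2, G6pdx and Me1, passed the threshold of 0.05 on the adjusted p of edgeR's quasi-likelihood test, both higher, and nothing is read from this count because the members were chosen by this contrast. Over all genes tested, 346 of 13699 were called, or 2.53%, of which 182 were higher (1.33%) and 164 lower (1.2%) with the DDI2-KO label. That total was 153 without WT library 1, 203 without WT library 2 and 631 without library 2 labelled DDI2-KO. For 4 members, G6pdx, Rpia, Me1 and Idh1, the DDI2-KO label held the higher pair of libraries without overlap, and for 1, Pgls, the lower pair. The same held for 28% and 27.7% of all genes tested. The median log2 fold change of the 8 members other than G6pdx and Me1 was 0.12, and they ranged from -0.44 to 0.36. By fold change G6pdx was number 14 and Me1 number 34 of the 182 genes called higher, and they were number 3 and number 15 of the 147 among these with a mean of at least 10 CPM.

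**Figure D2:**
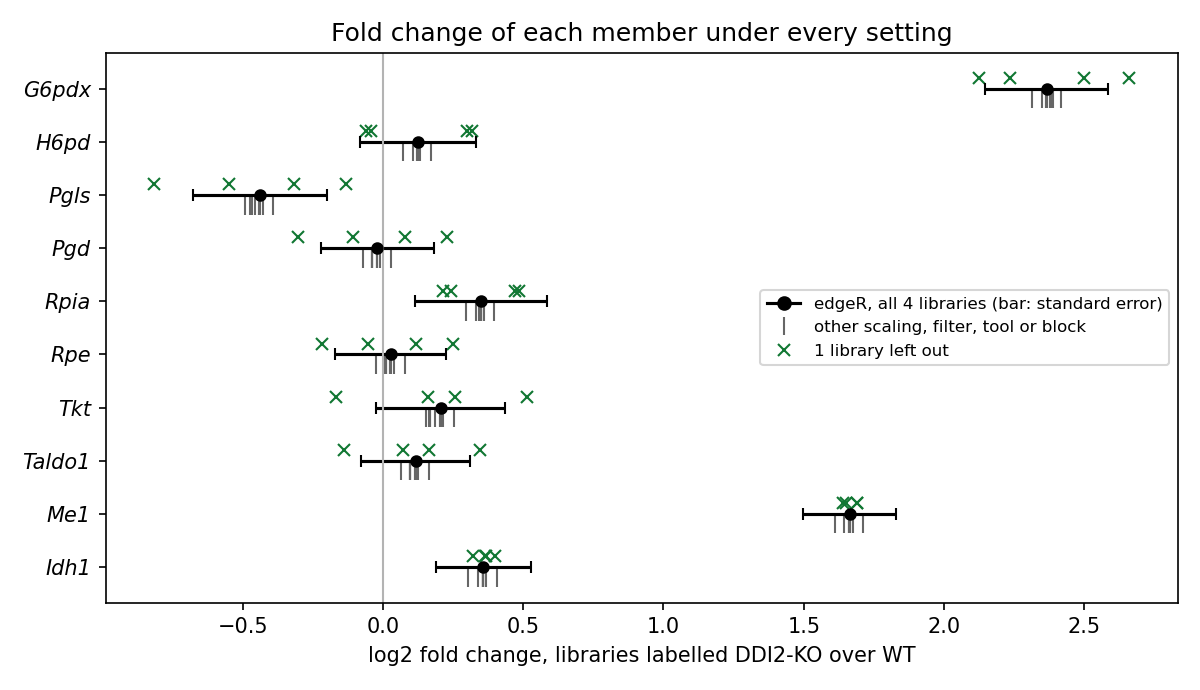
Log2 fold change of each member between libraries labelled DDI2-KO and WT, as black points with standard errors, with other settings as grey ticks and fits without 1 library as green crosses. G6pdx ranged from 2.12 to 2.66 and Me1 from 1.61 to 1.71, while H6pd, Pgd, Rpe, Tkt and Taldo1 crossed 0.

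Levels of different genes were compared per kilobase of exon. In WT the order ran from Idh1 at 161 ± 6.40 CPM per kilobase (SD, n = 2) through H6pd, Taldo1, Me1, Tkt, Rpe, Pgd, Pgls and G6pdx to Rpia at 0.793 ± 0.0876 (SD, n = 2). Both WT libraries gave this same order, and of the neighbours in it Pgd (6.68 ± 0.613) and Pgls (5.56 ± 0.634) differed by less than the sum of their SDs (n = 2 each). G6pdx stood next to last, at 3.91 ± 1.02 CPM per kilobase (SD, n = 2). With the DDI2-KO label, Me1 stood at 63.1 ± 1.33 CPM per kilobase (SD, n = 2), level with H6pd at 61.1 ± 10.6 (SD, n = 2). G6pdx was number 5 at 20.1 ± 2.53 CPM per kilobase (SD, n = 2), and its difference from Tkt, at 14.4 ± 4.69 (SD, n = 2), was within the sum of their SDs. In that group Tkt and Rpe, Rpe and Pgd, and Pgd and Pgls were also within the sum of their SDs, and the libraries of Rpe (7.63 and 10.6 CPM per kilobase) and Pgd (7.77 and 5.40) overlapped. With the length of the longest transcript in place of all exons, Tkt moved ahead of Me1 and Pgd ahead of Rpe in WT, and Tkt ahead of G6pdx and Pgd ahead of Rpe in the other group.

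Set against the enzymes around it, G6pdx changed its place in the branch. The level per kilobase of G6pdx was 0.511 and 0.650 times that of Pgd in the WT libraries and 2.82 and 3.40 times that of Pgd in the libraries labelled DDI2-KO. With the length of the longest transcript these ratios were 0.335 and 0.427 in WT and 1.85 and 2.23 in the others. On either length G6pdx was below Pgd in both WT libraries and above it in both of the others. This is a description of a gene chosen for its rise in the same contrast. H6pd exceeded G6pdx by 19.8 and 10.6 times in WT and by 3.13 and 2.92 times in the libraries labelled DDI2-KO. The ratio of Me1 to Idh1 was 0.125 and 0.122 in WT and 0.301 and 0.310 in the others. Tkt and Taldo1 kept their proportion, at 0.386 and 0.388 in WT, against 0.435 and 0.379 in those labelled DDI2-KO.

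**Figure D3:**
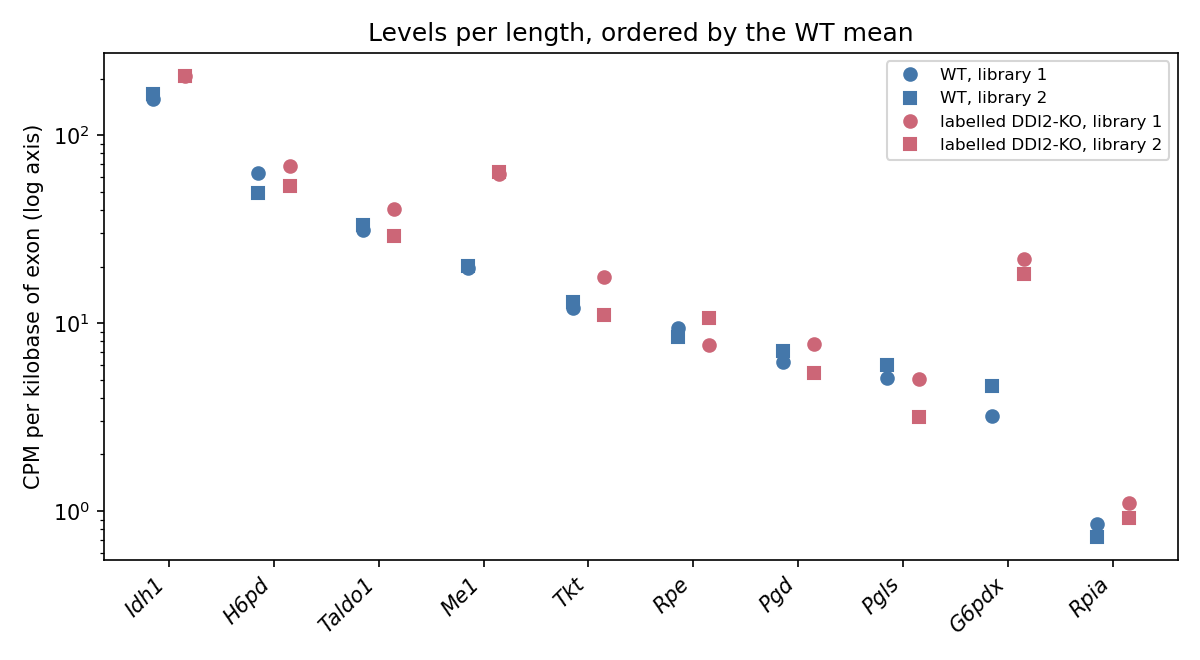
CPM per kilobase of exon on a log axis in each library, with members ordered by their WT mean, WT in blue and libraries labelled DDI2-KO in red. Idh1 leads in all 4 libraries and Rpia is last, while G6pdx moves from 3.19 and 4.62 to 21.9 and 18.3.

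The genes with the profile most like that of G6pdx, among the 7379 others with a mean of at least 10 CPM, were Rpl22l1, Pdk4 and Rdh16. Likeness was the root mean square difference of log2 CPM over the 4 libraries, each gene centred on its own mean, and it was 0.12, 0.19 and 0.29 in that order. Rpl22l1, a ribosomal protein paralog, had 4.52 and 6.21 CPM in WT against 25.7 and 24.5 CPM. Pdk4, the kinase that turns off pyruvate dehydrogenase, had 6.78 and 6.93 CPM against 35.5 and 32.6 CPM, and the retinol dehydrogenase gene Rdh16 had 77.2 and 64.4 CPM against 349 and 284 CPM. For Me1 they were Vkorc1 (0.09), Ces2e (0.09) and Atp5g3 (0.13), which encode a vitamin K reductase, a carboxylesterase and a subunit of the ATP synthase. These genes were picked for their likeness to the 2 members, so their values carry no test.

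Among the other routes of NADPH supply, 0 of the 14 genes tested passed the test that was run over all genes, where 2.53% passed. With 14 genes, 0 is not set apart from that share. The list of 16 genes holds mitochondrial and other malic enzymes, isocitrate and glutamate dehydrogenases, the transhydrogenase Nnt, NAD kinases and the folate enzymes. Of the 14 tested, 0 passed an adjusted p of 0.05 in edgeR, 2 (14.3%) had an unadjusted p under 0.05, and DESeq2 called 1, limma-voom 0 and limma-trend 0. Over all 13699 genes, 3216 or 23.5% had an unadjusted p under 0.05, and limma-voom called 0.993% and limma-trend 1.01%. DESeq2 called 7.29% of the 12902 genes to which it gave an adjusted p. Their median log2 fold change was -0.02, against -0.01 over all genes. Glud1, which makes NADPH or NADH in mitochondria, was the gene DESeq2 called, with 913 and 868 CPM in WT, against 1271 and 1615 CPM in those labelled DDI2-KO. The log2 fold change came to 0.70 (SE 0.19, adjusted p = 0.0825 in edgeR). Aldh1l1, the formyltetrahydrofolate dehydrogenase, had 838 and 971 CPM against 1174 and 653 CPM, with no direction that held across scalings. Shmt1, the cytosolic serine hydroxymethyltransferase, had 219 and 215 CPM against 286 and 246 CPM.

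The next list holds genes linked to the pentose phosphates through sugar kinases, nucleotide precursors and glucose 6-phosphate turnover. Of the 19 tested out of 21, 2 rose and 0 fell in edgeR, where 1.33% of all genes rose and 1.2% fell, and 7 (36.8%, against 23.5% of all genes) had an unadjusted p under 0.05. DESeq2 called 4 and each limma fit 1, where DESeq2 called 7.29% of all genes, limma-voom 0.993% and limma-trend 1.01%. In either direction edgeR called 2.53% of all genes. The edgeR, DESeq2 and limma counts of the lists that follow are to be read against these shares too. The median log2 fold change of the 19 was 0.29 against -0.01 over all genes, and the transketolase-like genes Tktl1 and Tktl2 had 0 reads in all 4 libraries. G6pc, the glucose-6-phosphatase that draws on the same substrate as G6pdx, had 119 and 71.5 CPM in WT, against 259 and 409 CPM in those labelled DDI2-KO. The log2 fold change came to 1.81 (SE 0.31, adjusted p = 0.0429 in edgeR). The call was lost in edgeR without library 1 labelled DDI2-KO (adjusted p = 0.0567) or library 2 (0.0947), and over the 14 alternatives the adjusted p ran from 1.50e-07 to 0.0947. Shpk, the sedoheptulose kinase that feeds the non-oxidative branch, had 43.0 and 43.8 CPM against 74.7 and 69.3 CPM. Its log2 fold change was 0.73 (SE 0.15, adjusted p = 0.0483 in edgeR), just inside the threshold. Of 14 alternatives only 6 called Shpk, and its adjusted p in edgeR was 0.249 without WT library 1, 0.195 without WT library 2 and 0.0567 without library 1 labelled DDI2-KO, within a range of 0.00440 to 0.249.

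The citrate and malate shuttles bring acetyl units and malate, the substrate of Me1, into the cytosol. Of 12 genes tested, 1 rose and 0 fell in edgeR, against 1.33% and 1.2% of all genes, with a median log2 fold change of 0.18. An unadjusted p under 0.05 was found for 3 (25%, against 23.5% of all genes), and DESeq2 called 3 and each limma fit 1. The gene that rose was Slc25a11, the mitochondrial carrier exchanging malate and oxoglutarate, with 49.7 and 56.7 CPM in WT, against 115 and 104 CPM in those labelled DDI2-KO. The log2 fold change came to 1.04 (SE 0.17, adjusted p = 0.0302 in edgeR). The call was lost in edgeR without WT library 1 (adjusted p = 0.132) or WT library 2 (0.0574), within a range of 2.77e-05 to 0.132 over the 14 alternatives. The cytosolic malate dehydrogenase Mdh1, the most counted gene of the list, had 494 and 606 CPM against 915 and 805 CPM and did not pass (log2 fold change 0.64, SE 0.19, adjusted p = 0.0970 in edgeR), though it did in DESeq2 (0.0269), within a range of 0.0269 to 0.395 over the 14 alternatives.

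**Figure D4:**
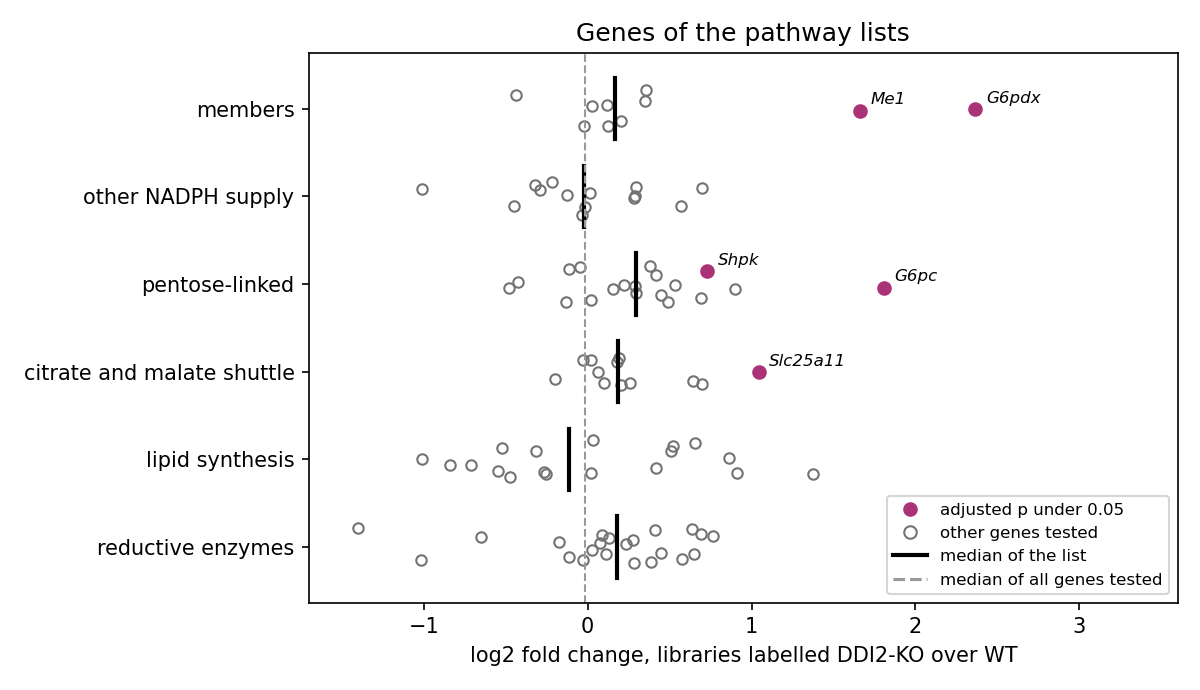
Log2 fold change between libraries labelled DDI2-KO and WT of every tested gene in the members and the 5 pathway lists, 1 point per gene with scatter in height for legibility, filled where the adjusted p in edgeR was under 0.05. Black bars are list medians and the dashed line is the median of all genes, and the filled points outside the members are Shpk, G6pc and Slc25a11.

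Pathways that draw on NADPH were examined next. Not every enzyme on these lists uses NADPH itself, since the acetyl-CoA carboxylases and elongases of the first do not and Sord of the second works with NAD. Of 18 genes of fatty acid and sterol synthesis, 0 passed in edgeR, 8 (44.4%, against 23.5% of all genes) had an unadjusted p under 0.05, and DESeq2 called 3 (2 higher and 1 lower), limma-voom 0 and limma-trend 0. The list was split evenly, with 9 positive and 9 negative values and a median log2 fold change of -0.12. Scd1, the stearoyl-CoA desaturase, dominated it with 4127 and 13732 CPM in WT, against 23177 and 23061 CPM in those labelled DDI2-KO. The WT libraries thus differed more from each other than the second did from the other group, and the log2 fold change of 1.37 (SE 0.61, adjusted p = 0.277 in edgeR) did not pass. It was 0.75 without WT library 1 (adjusted p = 0.102 in edgeR) and 2.49 without WT library 2, where it passed (9.46e-05), within a range of 9.46e-05 to 0.595 over the 14 alternatives. The desaturase gene Fads1 had 655 and 637 CPM against 706 and 617 CPM. Of 22 reductive genes, such as those of glutathione, thioredoxin and carbonyl reduction, 0 passed in edgeR, 9 (40.9%, against the same 23.5%) had an unadjusted p under 0.05, and DESeq2 called 5 (3 higher and 2 lower), limma-voom 0 and limma-trend 0. Their median log2 fold change was 0.18. Catalase, which binds NADPH, had the highest counts of that list at 2634 and 2415 CPM in WT and 2870 and 2649 CPM. Hsd11b1, which uses the NADPH made by H6pd, had 709 and 617 CPM against 894 and 1190 CPM (log2 fold change 0.65, SE 0.20, adjusted p = 0.110 in edgeR and 0.0393 in DESeq2, within a range of 0.0286 to 0.343 over the 14 alternatives). Sord, the sorbitol dehydrogenase of the polyol route, had 920 and 887 CPM against 1223 and 1184 CPM.

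Regulators with known ties to G6pdx, Me1 or lipid synthesis were read next. Of 21 tested, 1 rose and 0 fell in edgeR, against 1.33% and 1.2% of all genes, with a median log2 fold change of -0.02. Only 2 (9.52%, against 23.5% of all genes) had an unadjusted p under 0.05, and DESeq2 called 2, Pparg as higher and Mlxipl as lower, and each limma fit 0. Pparg, a nuclear receptor that drives lipid storage, had 9.67 and 12.2 CPM in WT, against 21.8 and 22.8 CPM in those labelled DDI2-KO (log2 fold change 1.03, SE 0.19, adjusted p = 0.0404 in edgeR). Of 14 alternatives 9 called Pparg. The call was lost in edgeR without WT library 1 (adjusted p = 0.196), WT library 2 (0.0623) or robust estimation (0.0529), and in limma-voom (0.0524) and limma-trend (0.0553), within a range of 0.000265 to 0.196. Nfe2l1, which encodes the DDI2 substrate NRF1, had 106 and 68.0 CPM against 114 and 73.7 CPM. Nfe2l2, which encodes the NRF2 factor of the antioxidant response element, had 87.9 and 102 CPM against 80.2 and 87.2 CPM. The groups of Nfe2l1 overlapped, and those of Nfe2l2 nearly did. Feeding also sets the levels of G6pdx and Me1 in liver, and feeding times were not given in the sources used here. Of 10 genes high in the fed liver, 0 passed in edgeR, 5 (50%, against 23.5% of all genes) had an unadjusted p under 0.05, and DESeq2 called 4 (3 higher and 1 lower), limma-voom 0 and limma-trend 0. Of these genes 7 had positive and 3 negative values, with a median log2 fold change of 0.36. The lower one was Mlxipl, which encodes the carbohydrate response factor ChREBP, with 290 and 283 CPM in WT against 174 and 206 CPM (log2 fold change -0.59, SE 0.18, adjusted p = 0.1004 in edgeR and 0.0356 in DESeq2, within a range of 0.0356 to 0.349 over 14 alternatives). Pklr, the liver pyruvate kinase, had 198 and 216 CPM against 436 and 309 CPM, and passed in DESeq2 (adjusted p = 0.00529) and in edgeR without library 2 labelled DDI2-KO (0.0317), without the filter (0.00301) and with the replicate number as a block (0.0248), within a range of 0.00301 to 0.264 over 14 alternatives. Fasn had 353 and 533 CPM against 578 and 320 CPM, and Acly 287 and 413 CPM against 454 and 278 CPM. Of 12 genes high in fasting, 8 had positive and 4 negative values, with a median log2 fold change of 0.35. An unadjusted p under 0.05 was found for 6 (50%, against 23.5% of all genes). In edgeR 2 of the 12 rose and 0 fell, against 1.33% and 1.2% of all genes. The 2 were G6pc and Pdk4, the latter with a log2 fold change of 2.31 (SE 0.17, adjusted p = 0.00911 in edgeR). DESeq2 called 5 of them, 3 higher, these 2 and Txnip, and 2 lower, Cyp4a14 and Ppargc1a. Cyp4a14, a fatty acid hydroxylase, had 804 and 358 CPM in WT against 164 and 239 CPM, with a log2 fold change of -1.53 (SE 0.41, adjusted p = 0.105 in edgeR) that was -0.83 without WT library 1 and -2.0 without WT library 2, where it passed (adjusted p = 0.00342), within a range of 0.000295 to 0.391 over 14 alternatives. Ppargc1a, a coactivator of gluconeogenic genes, had 15.9 and 13.3 CPM against 7.38 and 8.79 CPM (log2 fold change -0.86, SE 0.20, adjusted p = 0.0650 in edgeR). The part of feeding in the G6pdx and Me1 values was not tested.

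Markers of cell types were read in the same libraries, since G6pdx is also expressed outside hepatocytes. The summed level of 10 hepatocyte markers was 182775 and 212462 CPM in WT, against 170148 and 171793 CPM in those labelled DDI2-KO, most of it Alb. Of these markers 1 fell, Serpina1e, against 1.2% of all genes (log2 fold change -3.20, adjusted p = 0.0404 in edgeR). The 10 macrophage markers summed to 999 and 829 CPM against 1118 and 1004 CPM, led by Cd5l, with 7 positive and 3 negative values. Without overlap, 4 were higher and 3 lower with the DDI2-KO label, against 28% and 27.7% of all genes. Of the macrophage markers 0 passed in edgeR, limma-voom or limma-trend, 3 (30%, against 23.5% of all genes) had an unadjusted p under 0.05 and DESeq2 called 1 higher. The 10 endothelial markers summed to 748 and 651 CPM against 714 and 679 CPM, with 5 positive and 5 negative values. Fcgr2b led in WT library 2, and Dnase1l3 led narrowly in the other libraries. Of the endothelial markers 1 fell, Stab2 (log2 fold change -1.10, adjusted p = 0.0288 in edgeR). The 8 erythroid markers summed to 112 and 213 CPM in WT and 81.1 and 69.4 CPM with the DDI2-KO label. Hbb-bs led in both WT libraries, and Alas2 led narrowly in both of the others. Of the 6 erythroid markers tested 1 fell, Hba-a1 (log2 fold change -1.94, adjusted p = 0.0338 in edgeR). All 6 had negative values, with a median log2 fold change of -1.07, 4 (66.7%, against 23.5% of all genes) had an unadjusted p under 0.05, and DESeq2 called 3, all lower. Hba-a2 stood at the threshold (log2 fold change -1.58, adjusted p = 0.0502 in edgeR), within a range of 0.000121 to 0.284 over 14 alternatives, of which 6 called it. In edgeR it passed without WT library 1 (0.00550), as did Hbb-bs (log2 fold change -1.55, adjusted p = 0.0156), which was at -1.14 with all libraries and -0.57 without WT library 2. The nuclear RNAs Malat1 and Neat1 both fell, with log2 fold changes of -1.29 (SE 0.19, adjusted p = 0.0224 in edgeR) and -1.78 (SE 0.31, adjusted p = 0.0438 in edgeR). Malat1 had 56.3 and 59.7 CPM against 20.2 and 27.2 CPM. Reads on no annotated feature moved with the label too, and relative to gene reads they came to 5.11% and 4.70% for WT, against 2.53% and 3.65%, while ambiguous reads came to 2.5% and 2.54% against 3.49% and 3.66%. Of these calls, edgeR lost Serpina1e (adjusted p = 0.0960 and 0.113) and Hba-a1 (0.196 and 0.213) without library 1 or 2 labelled DDI2-KO, Stab2 (0.109) without WT library 1, and Neat1 without WT library 1 (0.0559) or library 1 labelled DDI2-KO (0.0921). With the replicate number as a block edgeR also lost Serpina1e (adjusted p = 0.132) and Neat1 (0.0536), and without the filter it lost Serpina1e (0.107). Over the 14 alternatives the adjusted p ran from 5.27e-05 to 0.132 for Serpina1e, 9.49e-08 to 0.213 for Hba-a1, 1.79e-05 to 0.109 for Stab2 and 3.54e-07 to 0.0921 for Neat1. The part of blood content, of nuclear RNA recovery or of these read classes in the G6pdx and Me1 values was not tested.

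The other marker lists had no gene that passed in edgeR, limma-voom or limma-trend, and their further counts are to be read against the 23.5% of all genes with an unadjusted p under 0.05 and the 7.29% called by DESeq2. Hepatocytes differ along the lobule, and 10 pericentral genes summed to 12226 and 7368 CPM in WT against 11770 and 10039 CPM, led by Cyp2e1, with 4 (40%, against 23.5% of all genes) at an unadjusted p under 0.05, 1 called higher by DESeq2 and a median log2 fold change of 0.34. The 10 periportal genes summed to 8228 and 10764 CPM against 8515 and 7394 CPM, led by Cps1, with 9 negative values, a median of -0.27, 1 (10%, against 23.5%) at an unadjusted p under 0.05 and 0 called by DESeq2. The WT libraries differed from each other in both of these sums by more than the libraries of the other group did. The 10 stellate cell markers summed to 686 and 753 CPM against 634 and 611 CPM, led by Dcn, with 9 negative values, a median of -0.20, 2 (20%, against 23.5%) at an unadjusted p under 0.05 and 0 called by DESeq2. The 10 lymphocyte markers summed to 43.9 and 52.5 CPM against 56.4 and 57.6 CPM. Ptprc led in WT library 1, and the immunoglobulin gene Ighm led in the other libraries. Of the lymphocyte markers 8 had negative values, 4 (40%, against 23.5%) had an unadjusted p under 0.05 and DESeq2 called 1 higher. Of 8 biliary markers 6 were tested, and the list summed to 78.8 and 76.8 CPM against 88.0 and 88.1 CPM, led by Spp1, with 1 (16.7%, against 23.5%) at an unadjusted p under 0.05 and 0 called by DESeq2. Low sums were found for 8 adipocyte markers (26.1 and 23.5 CPM against 17.9 and 13.1 CPM), 8 acinar markers (20 and 6.89 against 15.1 and 12 CPM, led by Cela1) and 10 neutrophil markers (8.51 and 8.48 against 8.42 and 7.48 CPM, led by Csf3r). Lipe led the adipocyte list in library 1 of each group, and Fabp4 led it in library 2. Only 3 adipocyte, 2 acinar and 5 neutrophil markers were tested, of which 3, 0 and 0 had an unadjusted p under 0.05 and DESeq2 called 0, and no reads were counted in any library on 4, 6 and 1 genes of these lists, among them Plin1, Cpa1 and Ly6g. The part of these cell types or of lobule position in the G6pdx and Me1 values was not tested.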

How the data were processed

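Liver mRNA of 2 WT mice and 2 mice labelled DDI2-KO was sequenced from stranded TruSeq libraries. The authors deposited a raw read count per Ensembl gene and library, without normalization, and the submitters' processing notes name cutadapt 1.8, STAR 2.5.2b, HTSeq 0.6.1 and GRCm38. Lines of the counting program that name no gene were left out. Set against the reads on genes, those for alignments that were not unique stood at 65.8% and 51.8% for the WT mice, against 49.2% and 47.3% for the DDI2-KO label, those for no feature at 5.11% and 4.70% against 2.53% and 3.65%, and those for ambiguous reads at 2.50% and 2.54% against 3.49% and 3.66%. Symbols of 48349 of 48709 genes, exon lengths and shared 50-base stretches are from the GENCODE annotation of GRCm38. Counts of the 2 libraries of a group were set against each other, and the chi-square divided by its degrees of freedom was 64.7 in WT and 34.7 in the other group, far beyond sampling noise.

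Counts were compared with edgeR 4.0.16 in R 4.3.3 (TMM, filterByExpr, glmQLFit with robust estimation, glmQLFTest), with Benjamini-Hochberg adjustment over the 13699 genes tested and a threshold of 0.05. The replicate numbers were taken from the labels. P-values of edgeR rest on the spread between 2 mice per group, with the variance of each gene moderated towards the trend over all genes. A level of 3 counts, taken as the floor, was 0.0892 to 0.131 CPM on the TMM scale.

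Alternatives were DESeq2 1.42.0, limma-voom and limma-trend (limma 3.58.1, prior count 2), which the study's own use of limma called for, scaling by RLE factors, upper quartiles or library totals, fits with no low-count filter, with genes averaging 1 CPM or more, without robust estimation or with a replicate block, and fits without each library. Profile likeness used log2 of CPM plus 0.5. The members and lists were chosen with earlier results of these data known. The genes named are the members, Ddi2, G6pd2, list genes with an adjusted p under 0.05 or, where none passed, the 3 with the highest mean CPM, and the 3 genes closest in profile to G6pdx and to Me1. Genes overlapping or copying a member, Xist, Y-linked genes and marker genes named for their level are named outside this rule, having been picked with their values known. So are Mdh1, Por, Blvrb, Nfe2l1, Nfe2l2, Mlxipl, Txnip, Cyp4a14, Ppargc1a and Hba-a2. A gene that the rule names is not reported here.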

Additional observations from a re-analysis of the deposited data

How the results depend on the processing

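G6pdx (log2 fold change 2.12 to 2.66) and Me1 (1.61 to 1.71) kept their direction and call in all 14 alternatives, and the count of 2 members called did not change. Both were chosen by this contrast and the fits share its libraries, so this describes the processing and tests nothing. Pgls, Rpia and Idh1 kept their direction and were called in none. The count over all genes went from 346 to 940 under DESeq2, 136 under limma-voom, 139 under limma-trend, 1544 without the filter, 152 without robust estimation, and 153 to 631 with 1 library left out. Upper-quartile factors gave 126 higher of 317 calls, and library totals 230 of 378, against 182 of 346. DESeq2 and the fit without the filter each called 1 gene of other NADPH supply, 4 pentose-linked genes, 3 shuttle genes, 3 lipid synthesis genes and 5 reductive genes. Over all genes DESeq2 called 7.29%, and the fit without the filter called 1544 of the 21099 it tested. Pentose-linked genes called numbered 1 under upper-quartile factors, limma-voom, limma-trend, a mean of at least 1 CPM and no robust estimation, and library totals called 1 lipid synthesis gene. With 1 library left out, counts ran from 0 to 2 for pentose-linked genes, 0 to 1 for shuttle genes, 0 to 3 for lipid synthesis genes and 0 to 1 for reductive genes. The replicate block, a paired fit, called 1108 of the 13699 genes tested. Among these were 2 of 10 members, 4 of 19 pentose-linked genes, 2 of 12 shuttle genes, 5 of 18 lipid synthesis genes and 4 of 22 reductive genes. No list count was tested against the count over all genes. Libraries of the same number had deviations correlated at 0.0588, so the numbers were not taken to pair the mice. The ratio of the highest to the lowest member level per kilobase, averaged over the 4 libraries, was 206, and 168 with the longest transcript. Signs turned with 1 library left out for H6pd (-0.060 to 0.32), Pgd (-0.30 to 0.23), Rpe (-0.22 to 0.25), Tkt (-0.17 to 0.51), Taldo1 (-0.14 to 0.34), Aldh1l1 (-0.47 to 0.39), Fads1 (-0.062 to 0.14), Fasn (-0.46 to 0.39) and Acly (-0.33 to 0.38). They also turned under library totals for Pgd (0.028), and under upper-quartile factors for Rpe (-0.026), Aldh1l1 (-0.038), Fads1 (-0.018) and Fasn (-0.033). Aldh1l1 was -0.044 under limma-voom, -0.043 under limma-trend and the replicate block, and -0.0045 with a mean of at least 1 CPM. Fasn was -0.012 under limma-voom and -0.011 under limma-trend and the replicate block. The cause of these changes was not tested. Where a group was left with 1 library, that library was assumed to vary like those of the other group.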
